A study of Homo sapiens with 9 samples.

Results

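The matrix metalloproteinases MMP1, MMP2, MMP3, MMP7, MMP9, MMP14 and MMP15 and their inhibitors TIMP1, TIMP2 and TIMP3 were followed across 9 Affymetrix 3′ expression arrays of MDA-MB-231 cells. All probe sets with 1 of these 10 symbols in the platform annotation were taken, whatever their values. They numbered 16 of the 22215 probe sets tested, and the 10 genes stood among 11963 genes with a probe set of their own. MMP14 and TIMP3 had 4 probe sets each and every other gene had 1.

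MDA-MB-231 is a human triple-negative breast cancer line with mesenchymal features. Every line carried a pLKO lentiviral hairpin and grew in DMEM with 10% fetal bovine serum: shco4 cells expressed Coco hairpin #4, shco2 cells Coco hairpin #2, and scramble cells a control hairpin, with 3 arrays per line made from 200 ng of total RNA each. Coco, whose gene is DAND5, is a secreted antagonist of Nodal and BMP ligands, and the study set Coco-knockdown cells against scramble cells. The labels call the arrays of a line biological replicates but do not say whether they came from separate transductions or from cultures of 1 stable line, so p-values measure the spread between these arrays. No probe set carried the symbol DAND5 (0 probe sets), so the knockdown itself was not read here. Both hairpins were compared with the same 3 scramble arrays, and the 2 hairpin lines were also compared with each other.

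Matrix metalloproteinases are zinc endopeptidases that cut collagens, laminins, fibronectin and cell-surface proteins, and most are secreted as inactive proenzymes. MMP14 and MMP15 are membrane-type enzymes held at the cell surface, where MMP14 cuts fibrillar collagen and activates proMMP2 with TIMP2 as a bridge. The TIMPs bind the active site of these enzymes; TIMP3 is bound to the matrix and also inhibits several ADAM proteases. In breast cancer, MMP1 in particular has been tied to invasion and metastasis.

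Promoter sequences were in the RefSeq table used here for 5 of the 10 genes, MMP7, MMP14, MMP15, TIMP1 and TIMP3. Of these 5, the 4 genes with a called difference are shown, so that the windows upstream of them can be read beside the values. MMP1 also had called differences, but its promoter was not among the 5. Each is the 250 bases before the RefSeq start on GRCh38.p14, 5′ to 3′ on the plus strand. Capitals mark matches on either strand to 5 motifs, and no match overlaps another here. The AP-1 motif was searched as TGANTCA. The GC box, bound by Sp factors, was searched as GGGCGG. The letters CCAAT stood for the box of that name. For the TATA box the letters were TATAAA. For PEA3, an ETS motif, they were AGGAAG. The TIMP3 window is chr22:32801455-32801704, the TIMP1 window is chrX:47582186-47582435, the MMP14 window is chr14:22836335-22836584 and the MMP15 window is chr16:58025504-58025753.
TIMP3: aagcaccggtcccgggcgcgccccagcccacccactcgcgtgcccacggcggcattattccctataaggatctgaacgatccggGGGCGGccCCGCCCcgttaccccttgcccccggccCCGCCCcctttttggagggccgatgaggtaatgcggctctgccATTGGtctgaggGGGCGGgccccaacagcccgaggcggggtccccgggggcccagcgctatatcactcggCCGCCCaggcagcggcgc
TIMP1: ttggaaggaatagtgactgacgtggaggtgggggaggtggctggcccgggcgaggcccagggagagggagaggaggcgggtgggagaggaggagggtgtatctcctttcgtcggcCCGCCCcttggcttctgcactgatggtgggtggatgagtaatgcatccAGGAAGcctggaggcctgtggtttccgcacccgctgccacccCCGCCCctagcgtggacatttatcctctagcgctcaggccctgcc
MMP14: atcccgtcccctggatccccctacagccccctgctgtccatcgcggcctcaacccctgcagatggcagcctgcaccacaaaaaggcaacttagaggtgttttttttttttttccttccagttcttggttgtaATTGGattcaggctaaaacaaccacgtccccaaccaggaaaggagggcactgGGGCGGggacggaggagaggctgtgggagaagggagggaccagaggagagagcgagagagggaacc
MMP15: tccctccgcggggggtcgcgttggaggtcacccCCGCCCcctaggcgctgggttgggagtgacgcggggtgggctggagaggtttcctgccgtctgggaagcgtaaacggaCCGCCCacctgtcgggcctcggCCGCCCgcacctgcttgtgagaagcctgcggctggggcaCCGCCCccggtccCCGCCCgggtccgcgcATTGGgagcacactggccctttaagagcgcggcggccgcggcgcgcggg

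The TIMP3 and MMP15 windows each held 5 GC boxes, the TIMP1 window 2 and the MMP14 window 1. GC boxes occur in 42.6% of the 35116 promoters of the same length in that table, CCAAT boxes in 32.0%, PEA3 motifs in 28.7%, TATA boxes in 10.7% and AP-1 motifs in 6.6%. TIMP3, MMP14 and MMP15 had 1 CCAAT box each and TIMP1 had 1 PEA3 motif. None of these 4 windows held an AP-1 or a TATA match. In the MMP7 window 1 AP-1 match, 1 TATA match, 1 CCAAT match and 2 PEA3 matches were found. GC content was 72.4% for TIMP3, 64.8% for TIMP1, 56.8% for MMP14 and 74.8% for MMP15, beside a median of 58.0% over all promoters. A match is a description of letters in this window only.

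The median intensity per array lay between 122 and 130, and the ACTB 3′ to 5′ ratio was 1.12 to 1.14 in shco4, 1.08 to 1.11 in shco2 and 1.07 to 1.10 in scramble. Of the 8 markers of the line, 0 were under 64 on all arrays. In shco2, 6 were called lower than in scramble, beside 9.95% of all probe sets, with a median difference of -0.72. In shco4, 2 were higher and 1 lower than in scramble, beside 9.05% and 9.75%. Between the hairpins, 7 were higher and 1 lower in shco4 than in shco2, beside 14.9% and 16.1%. The summed intensity of the 8 was 48747 to 50799 in shco4, 32445 to 33111 in shco2 and 51143 to 54729 in scramble. FAP and POSTN of the fibroblast list, PGR and FOXA1 of the luminal epithelial list, and VWF and TEK of the leukocyte and endothelial list were under 16 on all arrays. The last list summed to 215 to 393 in shco4, 183 to 193 in shco2 and 173 to 234 in scramble, and its member CD14 was called higher in shco4 than in scramble (1.42, adjusted p 0.0490, limma) and than in shco2 (1.45, adjusted p 0.0296). The first of these CD14 calls was lost whichever array was left out, with adjusted p up to 0.136, with the replicate block (adjusted p 0.0855), with trended moderation (adjusted p 0.0537) and with only the 2 groups in the fit (adjusted p 0.0930). The second was lost without scramble array 2, shco2 array 1 or 3, or shco4 array 1 or 2, with adjusted p up to 0.0886, with only the 2 groups in the fit (adjusted p 0.0746) and with the replicate block (adjusted p 0.0614). The summed intensity of 10 luminal epithelial markers was 16868 to 18252 in shco4, 10736 to 11078 in shco2 and 19510 to 22444 in scramble. Among them KRT8, KRT18 and KRT19 were bright, at 2107 or more on every array, and GATA3 was at 437 or more. Against scramble, 0 of the 10 were higher and 5 lower in shco2 (10.7% and 9.95% of all probe sets). In shco4, 1 was higher and 2 lower (9.05% and 9.75%). The summed intensity of 10 fibroblast markers was 633 to 680 in shco4, 629 to 684 in shco2 and 363 to 465 in scramble. Against scramble, only ACTA2 of the 10 was called in shco2 and only LUM in shco4, both higher. Over all probe sets 10.7% and 9.05% were called higher. The other 9 were not called each time, and the list medians were 0 in shco2 and -0.06 in shco4. Whether these shifts play a part in the results for the proteases and inhibitors was not tested. As a guide to background, 92.1% of values for 24 probe sets of 16 genes restricted to other tissues were under 64, and 75.9% under 16. Values under 16 were set to 16 before log2 was taken, a floor at which no change can be seen.

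Of the 16 probe sets, 9 were called at an adjusted p under 0.05 (limma, two-sided) for shco2 against scramble, all 9 lower, beside 20.7% of all probe sets called in either direction and 9.95% called lower. For shco4 against scramble, 2 of 16 were called, 1 higher and 1 lower, beside 18.8% of all probe sets, with 9.05% called higher and 9.75% called lower. For shco4 against shco2, 7 of 16 were called, all 7 higher, beside 31.0% of all probe sets and 14.9% called higher. By gene, the 9 came from 4 of the 10 genes, the 2 from 2 and the 7 from 4. The arrays of the groups did not overlap for 12 probe sets in the first of these comparisons (35.8% of all probe sets), for 6 in the second (32.6%) and for 8 in the third (40.9%). Of the 12, 2 were higher (19.4% of all probe sets) and 10 lower (16.4%). Of the 6, 3 were higher (16.7%) and 3 lower (15.9%). Of the 8, all 8 were higher (20.1%) and 0 lower (20.8%). The median log2 difference of the 16 was -0.88, -0.07 and 0.58 in that order, while it was 0 over all probe sets each time. MMP14 and TIMP3 enter these counts and medians with 4 probe sets each, which are repeated readings of 1 gene. The comparisons with scramble share its arrays, and the third shares arrays with both.

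**Figure D1:**
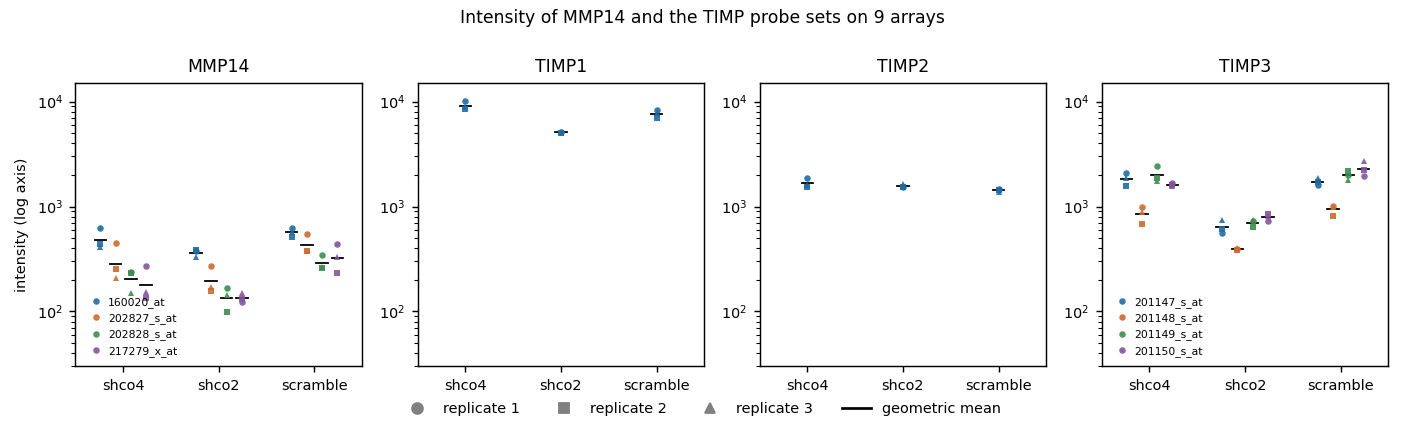
Deposited intensity of MMP14, TIMP1, TIMP2 and TIMP3 (log axis) on each of the 3 arrays of shco4, shco2 and scramble; marker shape gives the replicate, colour the probe set, and bars the geometric mean. All 4 TIMP3 probe sets and TIMP1 were lower on every shco2 array than on every shco4 and scramble array.

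TIMP3 was lower in shco2 than in scramble at all 4 of its probe sets, by 2.38-fold to 2.85-fold. The gene spans chr22:32801705-32863041 (GRCh38.p14), inside the larger gene SYN3. At 201150_s_at its intensity was 1665, 1618 and 1565 in shco4, 729, 855 and 812 in shco2, and 1965, 2209 and 2700 in scramble. At 201149_s_at it was 2415, 1883 and 1755 in shco4, 723, 645 and 743 in shco2, and 2002, 2160 and 1804 in scramble. The shco2 arrays lay below every other array at both. The log2 difference of shco2 from scramble was -1.51 ± 0.12 (SE, n = 3 each; adjusted p 0.000634, limma) at 201150_s_at and -1.50 ± 0.13 (adjusted p 0.000960) at 201149_s_at.

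The other TIMP3 probe sets gave similar sizes. At 201147_s_at the intensity was 2092, 1564 and 1875 in shco4, 558, 617 and 741 in shco2, and 1594, 1720 and 1879 in scramble; at 201148_s_at it was 995, 681 and 887 in shco4, 392, 388 and 405 in shco2, and 1019, 818 and 994 in scramble. Neither overlapped between shco2 and scramble, with log2 differences of -1.45 ± 0.14 (adjusted p 0.00137) and -1.25 ± 0.15 (adjusted p 0.00243). TIMP3 was in turn higher in shco4 than in shco2 at all 4 probe sets, by 2.03-fold to 2.89-fold, with adjusted p of 0.000412 to 0.00209. These calls held without any 1 array and under the 8 other processing alternatives run.

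Between shco4 and scramble the TIMP3 probe sets did not move together. Only 201150_s_at was called, at -0.49 ± 0.12 (adjusted p 0.0331, limma), with the lowest scramble array at 1965 and the highest shco4 array at 1665. That call was lost without scramble array 2, shco2 array 2 or 3, or any 1 of the shco4 arrays, with adjusted p up to 0.0883, and with only the 2 groups in the fit. The log2 difference was 0.08 at 201147_s_at, -0.15 at 201148_s_at and 0.01 at 201149_s_at, and the arrays overlapped at each. The 95% intervals of these 3 ran from -0.26 to 0.43, from -0.51 to 0.20 and from -0.31 to 0.33.

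TIMP1, a secreted inhibitor that binds proMMP9, lies at chrX:47582436-47586789. Its intensity at 201666_at was 10193, 8422 and 8828 in shco4, 5169, 4999 and 5076 in shco2, and 8232, 6912 and 7737 in scramble. All shco2 arrays were below all others, and the lowest shco4 array was above the highest scramble array. TIMP1 fell by 0.58 ± 0.09 on the log2 scale in shco2 against scramble (adjusted p 0.00549, limma), and was 1.79-fold higher in shco4 than in shco2 (0.84 ± 0.09, adjusted p 0.000741). Against scramble, shco4 was at 0.26 (adjusted p 0.0920), higher in 3 of 3 pairs of arrays with the same number. With the replicate number as a block, which takes in the pairing by number seen in all 3 comparisons, the adjusted p was 0.0341.

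TIMP2, the inhibitor that bridges MMP14 and proMMP2, was called in none of the 3 comparisons. Its intensity at 203167_at was 1850, 1543 and 1598 in shco4, 1529, 1545 and 1622 in shco2, and 1464, 1450 and 1366 in scramble. Arrays of both hairpin lines lay above every scramble array, but by small margins. The log2 difference was 0.22 for shco4 against scramble (adjusted p 0.0833), 0.13 for shco2 against scramble (adjusted p 0.270) and 0.08 for shco4 against shco2 (adjusted p 0.462).

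MMP14, the membrane-type enzyme at chr14:22836585-22847758, was the only metalloproteinase of the 7 with every value above 64. At 160020_at its intensity was 626, 442 and 407 in shco4, 378, 386 and 329 in shco2, and 624, 510 and 576 in scramble. At 202828_s_at it was 238, 231 and 151 in shco4, 167, 98.5 and 144 in shco2, and 347, 262 and 266 in scramble. In both, every shco2 array lay below every scramble array. At 202827_s_at it was 446, 254 and 207 in shco4, 272, 157 and 172 in shco2, and 547, 374 and 380 in scramble. At 217279_x_at, whose suffix marks probes that may bind other transcripts, it was 270, 135 and 152 in shco4, 123, 131 and 150 in shco2, and 443, 232 and 332 in scramble. There too the shco2 and scramble arrays were apart.

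MMP14 was lower in shco2 than in scramble without overlap at all 4 probe sets, and 3 of the 4 were called. The log2 differences were -0.64 ± 0.17 at 160020_at (adjusted p 0.0431, limma), -1.12 ± 0.26 at 202828_s_at (adjusted p 0.0278), -1.27 ± 0.33 at 217279_x_at (adjusted p 0.0381) and -1.13 ± 0.35 at 202827_s_at (adjusted p 0.0693). Each same-number pair of arrays had the lower value in shco2. With the replicate number as a block all 4 were called, with adjusted p of 0.00651 at 202827_s_at and 0.0294 to 0.0332 at the others (limma). The calls of the main fit were near the threshold. Leaving out 1 array ended the call at 160020_at for any scramble or shco2 array and for shco4 array 2, at 202828_s_at for any scramble array and shco2 arrays 2 and 3, and at 217279_x_at for scramble arrays 1 and 3, any shco2 array and shco4 array 3. The adjusted p then reached 0.128, 0.0865 and 0.110. The call at 160020_at was also lost with a floor of 64 (adjusted p 0.0504).

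**Figure D2:**
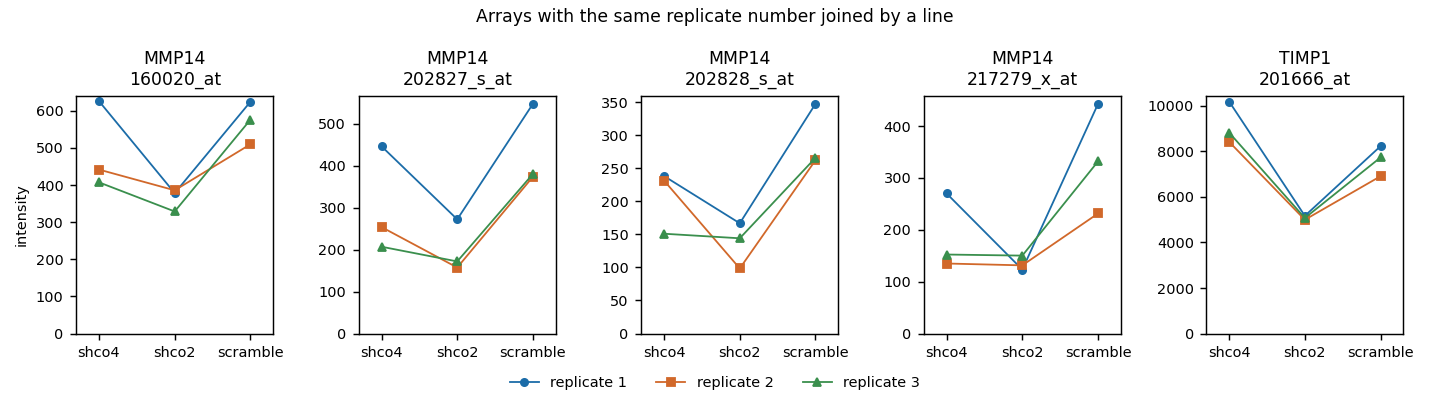
Intensity of the 4 MMP14 probe sets and of TIMP1 (linear axis) in shco4, shco2 and scramble, with arrays of the same replicate number joined by a line. In all 5 panels every replicate had its lowest point in shco2.

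For shco4 against scramble the MMP14 log2 differences were -0.23, -0.58, -0.51 and -0.87 at 160020_at, 202827_s_at, 202828_s_at and 217279_x_at, and none was called (adjusted p 0.125 to 0.460, limma). With the replicate number as a block 202827_s_at passed, with a difference of -0.58 and an adjusted p of 0.0395. Between the hairpin lines the log2 difference was 0.40 to 0.60, called at no probe set (adjusted p 0.132 to 0.452). At 202827_s_at, array 1 of every line had the highest intensity of its line.

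**Figure D3:**
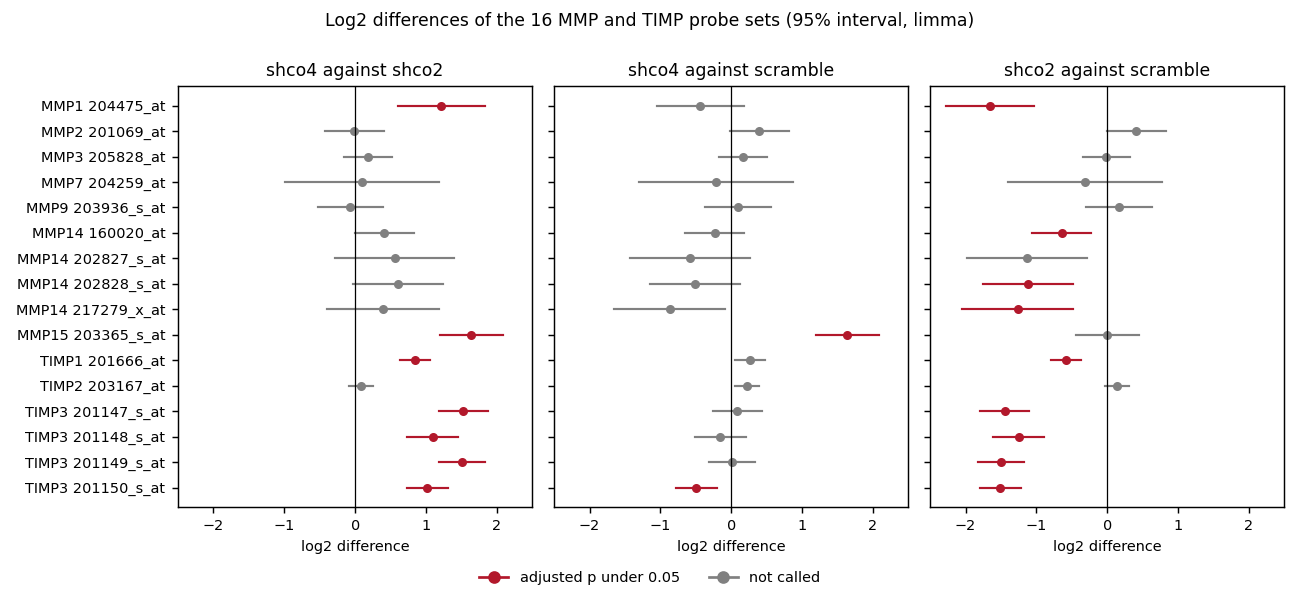
Log2 difference and 95% interval of each of the 16 probe sets in the 3 comparisons, with calls at an adjusted p under 0.05 in red. The called differences are all below 0 for shco2 against scramble and all above 0 for shco4 against shco2.

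MMP15, the other membrane-type enzyme, at chr16:58025754-58046901, was seen above the floor in 1 line only. Its intensity at 203365_s_at was 53.5, 63.5 and 36.5 in shco4, 15.5, 11.1 and 10.8 in shco2, and 11.1, 4.23 and 14.9 in scramble. All 6 arrays of shco2 and scramble were under the floor of 16 and were set to it. Measured against that floor, MMP15 was 3.12-fold higher in shco4 than in both (adjusted p 0.000980 against shco2 and 0.00237 against scramble, limma). The size of this difference depends on the floor chosen. Both calls held without any 1 array. All 9 values were under 64, and with a floor of 64 no difference was left.

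MMP1, the interstitial collagenase at chr11:102789919-102798160, had an intensity at 204475_at of 60.3, 43.6 and 59.2 in shco4, 26.9, 14.8 and 28.8 in shco2, and 74.5, 82.3 and 63.1 in scramble. The 3 lines did not overlap. MMP1 was lower in shco2 than in scramble by 3.15-fold (-1.66 ± 0.26, adjusted p 0.00603, limma) and higher in shco4 than in shco2 (1.22 ± 0.26, adjusted p 0.0120). For shco4 against scramble the difference was -0.44 (95% interval -1.05 to 0.18, adjusted p 0.324). Its value was under 64 on 7 of 9 arrays, and both calls were lost with a floor of 64, at -0.19 and 0. GFAP, an astrocyte gene that this line should lack, was itself called lower in shco4 than in shco2 (-1.95, adjusted p 0.00651), with 11.7, 37.8 and 8.47 in shco4, against 73.7 or more in shco2. Its call held with a floor of 64, at -0.36.

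**Figure D4:**
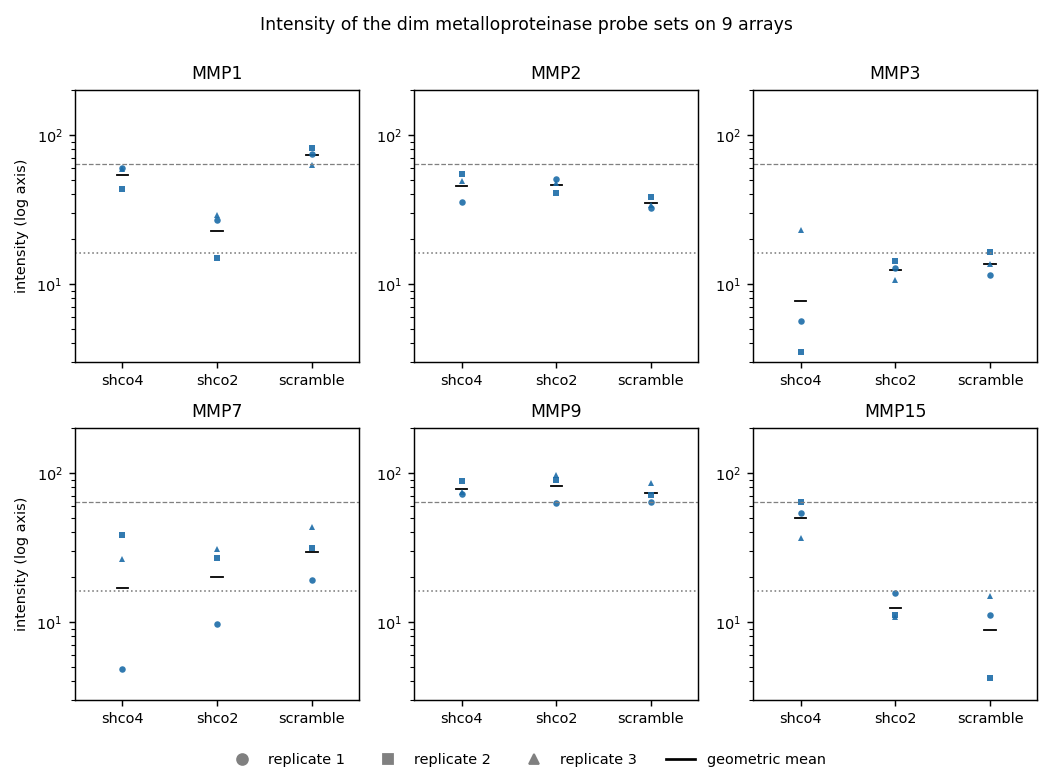
Intensity (log axis) of the metalloproteinases other than MMP14 on each array of shco4, shco2 and scramble, before the floor was set; the dotted line is the floor of 16, the dashed line 64, and bars are geometric means. MMP15 stood above 16 only in shco4, and MMP3 lay under 16 on 7 of 9 arrays.

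The other secreted enzymes lay near the background, and none was called in any of the 3 comparisons. MMP3, a stromelysin, had an intensity at 205828_at of 5.62, 3.47 and 23.2 in shco4, 12.7, 14.3 and 10.6 in shco2, and 11.5, 16.4 and 13.6 in scramble, so it was at the floor on 7 of 9 arrays. MMP7, or matrilysin, had 4.81, 38.5 and 26.3 in shco4, 9.62, 26.8 and 30.8 in shco2, and 19.1, 31.2 and 43.1 in scramble at 204259_at, at the floor on 2 arrays. No line was separate from the others for either gene. MMP2, a gelatinase activated at the cell surface, had 35.5, 54.6 and 49.4 in shco4, 50.4, 40.6 and 47.7 in shco2, and 32.5, 38.4 and 33.7 in scramble at 201069_at. It was under 64 on all 9 arrays, as were MMP3, MMP7 and MMP15. For MMP2 the log2 difference from scramble was 0.40 in shco4 (adjusted p 0.181) and 0.41 in shco2 (adjusted p 0.169); without shco4 array 1 the first was 0.58 (adjusted p 0.0326). MMP9, the other gelatinase, was brighter, with 72.0, 88.5 and 74.1 in shco4, 63.0, 89.1 and 97.3 in shco2, and 63.8, 71.2 and 85.2 in scramble at 203936_s_at. Its lines overlapped, and adjusted p was 0.680 to 0.930.

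Of 15 other metalloproteinases and TIMP4 with a probe set, 10 were under 64 on all arrays and 4 under 16 on all. None was called for shco2 against scramble, beside 20.7% of all probe sets. With dim probe sets left out the count was 1, MMP11 at -1.16 (adjusted p 0.0452, limma). The count was also 1 with only the 2 groups in the fit and without shco4 array 2, but MMP11 was not called there. MMP11, a stromelysin of breast stroma, was higher in shco4 than in shco2 (1.94, adjusted p 0.0168, limma), with 149, 111 and 125 against 44.0, 52.1 and 14.6; the call was lost without shco4 array 1 (adjusted p 0.0552) and with only the 2 groups in the fit (adjusted p 0.0559). Against scramble MMP11 in shco4 was at 0.78 (adjusted p 0.312), called with a floor of 64 (adjusted p 0.0187) and without shco2 array 3 (adjusted p 0.0441). TIMP4 was lower in shco4 than in scramble (-1.55, adjusted p 0.0159), lost without scramble array 1 or 2 and with only the 2 groups in the fit (adjusted p 0.0539), and at -0.78 with a floor of 64. It was also lower than in shco2 (-1.15, adjusted p 0.0283). That call was lost without scramble array 2 or shco2 array 1 or 2, with only the 2 groups in the fit (adjusted p 0.0708) and with a floor of 64 (-0.38, adjusted p 0.188).

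Among 14 ADAM and ADAMTS proteases, which TIMP3 can inhibit in part, 4 were lower and 1 higher in shco2 than in scramble, 0 were called for shco4 against scramble, and 4 were higher and 1 lower in shco4 than in shco2. Over all probe sets 20.7%, 18.8% and 31.0% were called in these comparisons. The count of 0 became 1 with the replicate block, with median centring, with log2(value + 16), with dim probe sets left out and without scramble array 1. ADAM10, a sheddase, fell in shco2 (-1.07, adjusted p 0.000999, limma), as did ADAM28 (-2.59, adjusted p 0.00335) and ADAM8 (-1.03, adjusted p 0.00967), while ADAM17, the TNF-converting sheddase, rose (0.60, adjusted p 0.00778). Between the hairpins, the log2 difference of shco4 from shco2 was 1.31 for ADAM10 (adjusted p 0.000213), 3.22 for ADAM28 (adjusted p 0.000785) and -0.46 for ADAM17 (adjusted p 0.0137). ADAM28 had 9.33, 18.5 and 33.0 in shco2, at or near the floor, so its size depends on it: with a floor of 64 the differences were -1.004 for shco2 against scramble and 1.63 for shco4 against shco2, both still called. The list's median difference was -0.24, 0.06 and 0.30 in the 3 comparisons, beside 0 over all probe sets.

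Of 14 activators and regulators, 2 were higher and 3 lower in shco2 than in scramble, beside 10.7% and 9.95% of all probe sets. In shco4, 0 were higher and 6 lower than in scramble, beside 9.05% and 9.75%. PLAU, the urokinase that starts plasmin formation, was lower in shco4 than in scramble (-1.83, adjusted p 0.00266, limma), with 821, 949 and 1102 in shco4 against 2838, 4024 and 3376 in scramble. PLAUR, its receptor, was lower in shco4 (-0.86, adjusted p 0.00254) and higher in shco2 (0.74, adjusted p 0.00350) than in scramble. TFPI2, a protease inhibitor of the matrix, went the same ways, at -0.71 (adjusted p 0.00193) and 0.39 (adjusted p 0.0129). CD9, a tetraspanin, was lower in shco2 than in scramble (-0.45, adjusted p 0.00407). PLAT was lower than in scramble in both hairpin lines, at -1.75 in shco2 (adjusted p 0.0134, limma) and -1.86 in shco4 (adjusted p 0.0123). So was CD151, at -0.51 in shco2 (adjusted p 0.0390) and -0.77 in shco4 (adjusted p 0.00969). The median of this list was -0.07, 0.11 and -0.06 in the 3 comparisons.

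Of 14 AP-1 and ETS factors, which act at many metalloproteinase promoters, 0 were higher and 2 lower in shco2, and 2 higher and 4 lower in shco4, than in scramble, beside 20.7% and 18.8% of all probe sets called in either direction. The shco2 count was 1 in the 6 fits without an array that also lost ELF3, and the shco4 count of 6 was 3 without scramble array 2. FOSL1 (-1.39, adjusted p 0.00468, limma) and ELK3 (-1.92, adjusted p 0.00427) were lower in shco4 than in scramble, and ETV1 (-1.85, adjusted p 0.00481) was lower in shco2 than in scramble. ELF3 was lower in shco2 (-0.51, adjusted p 0.0355), a call lost in 6 of the 9 fits that left out 1 array, scramble array 1 or 3, any shco2 array or shco4 array 2, with adjusted p up to 0.104. It was lost too with only the 2 groups in the fit (adjusted p 0.0526) and with the replicate block (adjusted p 0.0845). The list's median was 0.02, -0.25 and -0.32 for shco2 against scramble, shco4 against scramble and shco4 against shco2. Of 17 substrates, 0 were higher and 9 lower in shco2, and 1 higher and 1 lower in shco4, than in scramble; 7 were higher and 1 lower in shco4 than in shco2, with list medians of -0.67, -0.11 and 0.47 in the 3 comparisons. Over all probe sets 10.7% were called higher and 9.95% lower in shco2, and 9.05% higher and 9.75% lower in shco4, than in scramble. For shco4 against shco2, 14.9% of all probe sets were called higher and 16.1% lower. The 9 substrates called became 5 without shco2 array 3, and the 2 called for shco4 became 4 with the replicate block, with a floor of 64, with only the 2 groups in the fit and without shco2 array 2, and 5 with dim probe sets left out. COL1A2 (-2.36, adjusted p 0.00147), COL5A1 (-1.18, adjusted p 0.00210) and CD44 (-0.52, adjusted p 0.00273) fell in shco2, and SDC1 was lower in shco4 than in scramble (-1.34, adjusted p 0.00374).

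**Figure D5:**
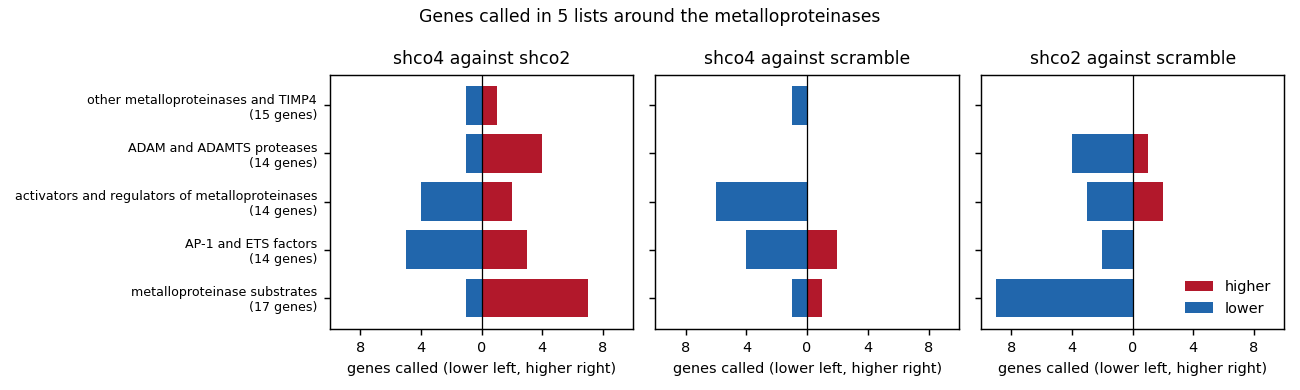
Number of genes called higher (right) and lower (left) in each of 5 gene lists, for the 3 comparisons. The substrate list had 9 of 17 genes lower in shco2 than in scramble.

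By the root mean square difference of centred log2 values over the 9 arrays, the genes with the pattern most like TIMP3 at 201150_s_at were CD58 (0.111), RAB1A (0.134) and WIPF2 (0.137). For TIMP1 they were MAN1B1 (0.0711), PDGFC (0.0732) and KDM5B (0.0765). For MMP14 at 160020_at they were CYBA (0.106), BPHL (0.123) and TPP2 (0.127).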

How the data were processed

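RNA from the 9 samples was hybridised to 1 array each. The authors deposited 1 table of linear intensity values for 22277 probe sets; on every array these intensities had a mean of 500.1 once 2% of probe sets at each end were trimmed, as tested on the values. Which scanner software and summary algorithm made them is not given in the sources used here. Sample titles gave line and replicate, and 0 columns were unmapped.

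After the 62 control probe sets were dropped, a floor of 16 was applied and intensities were put on the log2 scale. One limma 3.58.1 model (R 4.3.3) with a mean per line was fitted to all 9 arrays and 22215 probe sets, with Benjamini-Hochberg adjustment within each of 3 comparisons and calls at an adjusted p under 0.05. On all arrays 2611 probe sets (11.8%) were at the floor. The number of arrays limits the precision.

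The members and gene lists were chosen with earlier results of these data known. Lists hold other metalloproteinases and TIMP4, ADAM and ADAMTS proteases, activators and regulators, AP-1 and ETS factors, substrates, markers of fibroblasts, luminal epithelium, MDA-MB-231 and of leukocytes and endothelium, and genes restricted to other tissues; the probe set with the highest mean stood for a gene. Named were all members, up to 4 called genes per list with the smallest p, and the 3 genes nearest in pattern to each bright called member. Outside that rule, PLAT and CD151 were named as lower than scramble in both hairpin lines, and some markers for their level. A probe set under 64 on all 9 arrays is dim. Arrays of the same number deviated together between shco4 and scramble (correlation 0.133 to 0.235, other pairs -0.199 to -0.0431). So did those of shco2 and scramble (0.0571 to 0.290, other pairs -0.274 to 0.044) and of the hairpins (0.0576 to 0.213, other pairs -0.1965 to 0.0167). This was read as pairing by number, which the main fit leaves out and the replicate block takes in. The alternatives were quantile normalization, median centring, a floor of 64, log2(value + 16), dim probe sets left out, trended robust moderation, only the 2 groups compared, the replicate block, and each array left out.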

Additional observations from a re-analysis of the deposited data

Results flagged for a closer look

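For 4 genes the hairpins differed from each other in the direct comparison of shco4 with shco2, which is the test of the difference between their effects against scramble. On the log2 scale the difference was 1.53 at TIMP3 201147_s_at, 1.09 at 201148_s_at, 1.51 at 201149_s_at and 1.02 at 201150_s_at. TIMP1 differed by 0.84, MMP1 by 1.22 and MMP15 by 1.64, the last measured against the floor, at which all shco2 arrays lay. All 7 were higher in shco4. MMP15 was under 64 on all 9 arrays and MMP1 on 7 of 9, and both lost the difference with a floor of 64. Beside this, 31.0% of all probe sets differed between the hairpins.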

How the results depend on the processing

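Of 18 called member results, 14 held without any 1 array and 12 held under every other alternative run, where MMP2, MMP3, MMP7 and MMP15 have no value once dim probe sets are left out. The number of member probe sets called for shco4 against scramble was 2; it was 1 with a floor of 64, 1 with only the 2 groups compared and 4 with the replicate block, and 1 to 3 on leaving out 1 array. It was 6 to 10 for shco2 against scramble and 7 to 7 for shco4 against shco2 on leaving out 1 array. Over all probe sets, 2760 to 3938 were called for shco4 against scramble on leaving out 1 array, lowest without scramble array 2. With the replicate block, MMP14 202827_s_at was called for shco2 against scramble (adjusted p 0.00651, limma) and for shco4 against shco2 (adjusted p 0.0299). In each of the 3 comparisons every same-number correlation was above every other one. An array was nearest, by correlation, to the array of its own number in 18 of 18 cases. These cases are not independent, since each pair is counted from both of its arrays and the correlations are of deviations from line means. The labels do not say what the numbers mark, and the main fit did not use them.

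For shco4 against scramble, MMP14 217279_x_at was called with dim probe sets left out (adjusted p 0.0483) and without shco4 array 1 (adjusted p 0.0463). For shco2 against scramble, MMP14 202827_s_at was also called with median centring, with log2(value + 16), with dim probe sets left out and without shco4 array 1 (adjusted p 0.0366). Signs turned only for differences that were not called. MMP3 was at 0.0067 for shco2 against scramble with median centring, and at -0.23 for shco4 against scramble and -0.16 for shco4 against shco2 with log2(value + 16), where MMP7 was at -0.033 for shco4 against shco2. CD14 was at 0.00055 for shco2 against scramble with quantile normalization. On leaving out 1 array the ranges for shco2 against scramble were -0.22 to 0.0038 for FOSL1 and -0.23 to 0.22 for CD14. For shco4 against scramble they were -0.013 to 0.25 for MMP3, -0.53 to 0.11 for MMP7, -6.4e-05 to 0.21 for MMP9, -0.012 to 0.20 for TIMP3 201147_s_at, -0.27 to 9.3e-06 for 201148_s_at, -0.13 to 0.10 for 201149_s_at, -0.44 to 0.0057 for ETV1 and -0.23 to 0.0084 for KRT19. For shco4 against shco2 they were -0.14 to 0.17 for MMP2, -0.20 to 0.43 for MMP7 and -0.26 to 0.056 for MMP9. The cause was not tested. Signal close to background limits MMP1, MMP2, MMP3, MMP7 and MMP15. MMP9, at 63.0 to 97.3, also lay within the range of genes restricted to other tissues (95th percentile 74.4, highest value 118.6).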

Other observations

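Some marker genes outside the protease lists differed between lines. LUM, a matrix proteoglycan of fibroblasts, had an intensity of 296, 239 and 128 in shco4, 7.82, 13.8 and 3.86 in shco2, and 18.2, 19.1 and 25.0 in scramble, and was higher in shco4 than in scramble (3.34 on the log2 scale, adjusted p 0.00120, limma). Its scramble values lie in the range of genes restricted to other tissues, and with a floor of 64 the difference was 1.70, still called. ACTA2, a smooth muscle actin, was 335, 266 and 322 in shco2 against 83.6, 71.7 and 86.7 in scramble (1.93, adjusted p 0.00185). The keratins KRT8, KRT18 and KRT19 fell in shco2 against scramble, by 0.80, 0.86 and 1.19. AXL, a receptor tyrosine kinase, was lower in shco4 than in scramble (-2.11, adjusted p 0.000248).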
